A study of Mus musculus with 12 samples.

Results

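DNA methylation was compared between the mouse embryonic stem (ES) cell lines CC9 pahari and CC9 dunni. The arrays were chosen by their titles, replicates 1 to 3 of each line, and make up 6 of the 12 arrays of the series. The study placed different mitochondrial genomes into ES cells of 1 nuclear background and asked how these affect the nucleus. Both lines descend from CC9.3.1 ES cells, taken from a 129SvEv-Gpi1c(129S6) embryo, and were made by fusing cytoplasts of the donor species to CC9.3.1 cells that had been depleted of their own mtDNA. The mt haplotype of CC9 pahari is that of *Mus pahari*, and that of CC9 dunni is labelled *Mus terricolor*. The cells were grown on embryonic fibroblasts treated with mitomycin C and kept without feeder cells for 48 h before the DNA was taken. The design states 3 biological replicates of each line, but separate cultures are not described, so the *p* values measure the spread between these samples, which may be technical. The replicates of a line do not show how independently made lines of the same mt haplotype would differ.

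Methylation of cytosine to 5-methylcytosine (5mC) is found in mammals mainly at CpG sites. CpG islands are short regions rich in such sites, often at promoters, and most of them are free of methylation in ES cells. In methylated DNA immunoprecipitation (MeDIP) an antibody to 5mC enriches methylated fragments (IP), and the ratio of IP to input DNA on an array is a relative measure of methylation that also rises with the density of CpG sites. The value used below is the log2 of IP (Cy5) over input (Cy3), centred on the median of each array, so 0 is the median probe of that array. Differences are CC9 pahari minus CC9 dunni on this scale. The array files gave probe positions on mouse build mm9 and did not pair probes with genes, and results are given by position. A locus is a run of at least 3 probes with gaps of at most 1000 bp. The gene lists and cell type markers listed for the comparison could not be read for this reason, and the cell type was not checked.

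Of the 88737 probes, 83.8%, 86.5% and 93.1% had an IP signal well above background in CC9 pahari and 80.0%, 80.6% and 95.9% in CC9 dunni (replicates 1, 2 and 3). The lines overlapped in this measure (87.8 ± 4.74% against 85.5 ± 9.05%, SD, n = 3, exact permutation test, two-sided, *p* = 0.6). An exact test of 3 arrays against 3 cannot give a *p* under 0.1. Replicates 1 and 2 of both lines were scanned in an earlier period and replicate 3 of both in a later period, and the period was a block in the model. Within each period the lines lay on different slides, so in these 6 arrays line and slide cannot be told apart. Replicates 1 and 2 of a line shared a slide, so the error of the model rests in part on arrays of the same slide. The correlation within a slide over probes was 0.397.

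Differences in both directions were found, and the wider ones lay with the higher ratio in CC9 dunni. Of 13463 loci, 583 (4.33%) differed at a Benjamini-Hochberg adjusted *p* under 0.05 in limma, 407 with the higher ratio in CC9 dunni and 176 with the higher ratio in CC9 pahari. The share with the higher ratio in CC9 dunni was 69.8% of these 583 loci and 37.0% of all loci tested. The median difference was −0.83 at the loci higher in CC9 dunni, 0.60 at those higher in CC9 pahari and 0.07 over all loci. A difference of at least 1 was reached at 132 of the 407 loci and at 4 of the 176. All 3 arrays of 1 line lay beyond the 3 of the other at 2305 loci (17.1%), 1034 higher in CC9 dunni and 1271 higher in CC9 pahari, and at 461 of the 583 called loci. The split of the called loci varied with the processing. It was 467 higher in CC9 dunni and 98 higher in CC9 pahari without centring, and 123 and 15 with equal median absolute deviation. With normexp background correction, which here also added an offset of 50, it was 42 and 8. It was more even with only probes whose IP and input were well above background (515 and 355) and in the IP signal alone (378 and 319), a model added after the data were seen. With the replicate number as the block limma called 116 loci, 108 of them higher in CC9 dunni. With the slide as a random block it called 275, 239 of them higher in CC9 dunni. With no scan period block it called 62, 59 of them higher in CC9 dunni, and with all 12 arrays it called 0. Without CC9 pahari replicate 1 or 2 limma called 66 or 85 loci, of which 64 or 80 were higher in CC9 dunni. Without CC9 dunni replicate 1 or 2 it called 70 or 58, of which 66 or 57 were higher in CC9 dunni. Without replicate 3 of either line it called 2420, of which 1109 were higher in CC9 dunni and 1311 higher in CC9 pahari. Leaving out either replicate 3 gives the fit of the earlier arrays alone, since the block takes up the later array that is left. Both the count and its split thus rest on which arrays are in the model, and the larger count in CC9 dunni did not hold in the earlier arrays alone.

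The widest difference was at chromosome 5 from 144014658 to 144017045, a locus of 2388 bp with 20 probes. Its mean ratio was 0.42, 0.45 and 0.32 in CC9 pahari and 3.01, 3.05 and 3.63 in CC9 dunni. The CC9 pahari arrays lay near the array median, the CC9 dunni arrays were all high, and the lines did not overlap. The means were 0.39 ± 0.07 and 3.23 ± 0.35 (SD, n = 3). They differed by −2.83 with a standard error of 0.16 (limma adjusted *p* = 0.00231, and 0.0313 with the replicate block). It did not pass with equal median absolute deviation (−3.85, limma adjusted *p* = 0.0861) or with all 12 arrays, and over the alternatives the limma adjusted *p* was 0.000191 to 1. All 20 probes were higher in CC9 dunni, by differences from −3.89 to −0.77, and 16 of them passed the adjusted *p* as single probes in limma, though 0 did with the replicate block. The IP signal differed by −2.88 and the input by −0.03, so the difference lay in the IP channel. With the CC9 spretus arrays in the model, which share the CC9 pahari and CC9 dunni arrays with this comparison, CC9 spretus had 1.17, 1.18 and 1.17 here. It was lower than CC9 dunni by a difference of −2.06 (limma adjusted *p* = 0.00324) and higher than CC9 pahari by 0.78 (limma adjusted *p* = 0.0483). The CC9 mus arrays, all of the later period and not in that model, had 0.68, 2.46 and 4.65, all above the CC9 pahari arrays and on either side of the CC9 dunni arrays.

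**Figure D1:**
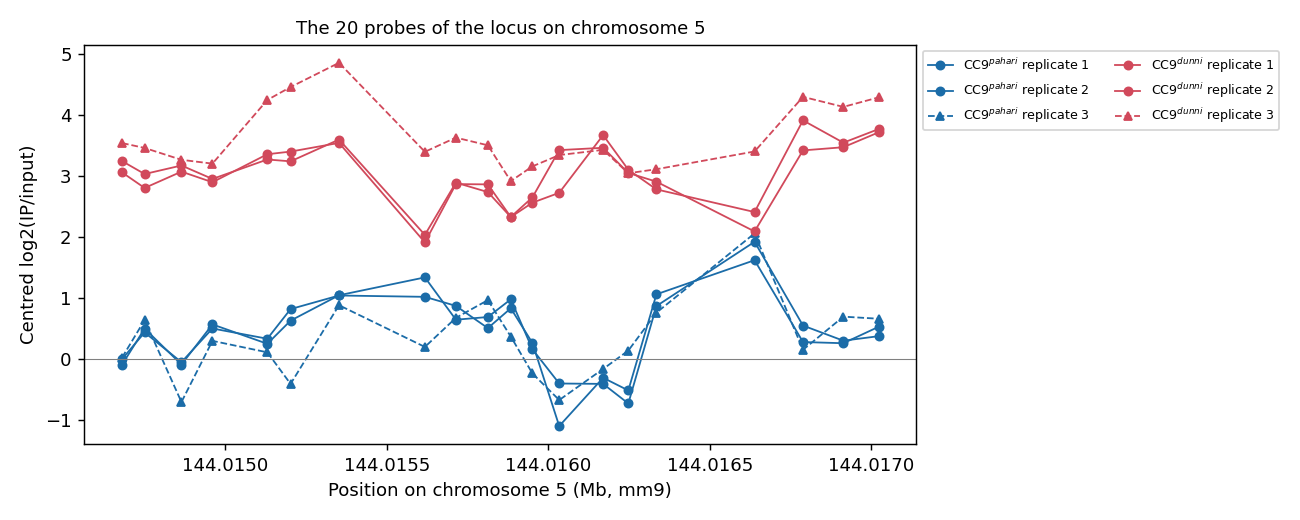
Centred log2 ratio of IP over input (vertical axis) at each of the 20 probes of the locus on chromosome 5 against position (Mb, mm9), 1 line per array, CC9 pahari in blue and CC9 dunni in red, with solid lines for the earlier and dashed lines for the later scan period. The red lines lie above the blue lines at all 20 probes.

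The second locus, chromosome 7 from 144086069 to 144086337 with 3 probes, had −0.52, −0.67 and −0.93 in CC9 pahari and 2.17, 2.23 and 1.15 in CC9 dunni. The ratio was below the array median on all 3 CC9 pahari arrays and above it on all 3 CC9 dunni arrays, a difference of −2.56 (standard error 0.16, limma adjusted *p* = 0.00258, and 0.0314 with the replicate block). The smallest adjusted *p* of any locus was at chromosome 18 from 66618093 to 66618722, where the 6 probes had a mean of 0.67, 0.58 and 0.61 in CC9 pahari and 3.09, 3.19 and 2.90 in CC9 dunni. The arrays of each line lay close together there, with SDs of 0.04 and 0.15, and the difference of −2.44 had a limma adjusted *p* of 0.00126. At chromosome 3 from 83994431 to 83995119, 7 probes had 0.61, 0.60 and 0.73 against 2.34, 2.40 and 4.11. CC9 dunni replicate 3 stood above the other 2 arrays of its line, and the difference of −2.30 (limma adjusted *p* = 0.0150) was −1.76 in the earlier and −3.38 in the later scan period, with a limma adjusted *p* of 0.0646 in the replicate block. At chromosome 8 from 86191891 to 86192711, 8 probes had 1.61, 1.5 and 1.82 in CC9 pahari and 3.85, 3.91 and 3.33 in CC9 dunni. Both lines were above the array median and did not overlap, with a difference of −2.05 (limma adjusted *p* = 0.00466), which was −1.44 with normexp and did not pass there (limma adjusted *p* = 0.164). The IP differed by −1.82 and the input by 0.24 at this locus. The input of the whole of chromosome 8 was higher in CC9 pahari, as given below.

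The other 5 of the 10 named loci higher in CC9 dunni lay on chromosomes 5, 16, 1, 2 and 6. Over all 10, the locus means were −0.71 to 1.89 in CC9 pahari and 1.85 to 4.00 in CC9 dunni, and the lines did not overlap at any of them, which the rule for naming them required. Their difference was −2.80 to −1.65 in the earlier period and −3.38 to −1.08 in the later one. The IP differed by −2.88 to −1.82 and the input by −0.10 to 0.38. With the replicate block 8 of the 10 passed in limma. The exceptions were the locus on chromosome 3 and that on chromosome 6 from 58856617 to 58857246 (limma adjusted *p* = 0.057). With normexp and its offset of 50 the differences of the 10 loci shrank to −1.90 to −0.69. There 7 passed, all but those on chromosomes 3, 6 and 8. With equal median absolute deviation 4 of the 10 passed and with all 12 arrays 0, and over the alternatives their limma adjusted *p* was 0.000191 to 1.

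Among the loci higher in CC9 pahari, the widest difference was at chromosome 5 from 109985927 to 109986155, where 3 probes had a mean of 2.31, 2.27 and 1.17 in CC9 pahari and 0.51, 0.73 and 0.66 in CC9 dunni. CC9 pahari replicate 3 was nearer to the CC9 dunni arrays than the other replicates were, and the difference of 1.28 (standard error 0.23, limma adjusted *p* = 0.0363) was 1.67 in the earlier and 0.51 in the later period. In the replicate block its limma adjusted *p* was 0.115. At chromosome 17 from 56705669 to 56706098, 5 probes had 3.52, 3.51 and 3.61 against 2.79, 2.69 and 1.86. This locus was high in both lines and highest in CC9 pahari, by 1.1 (limma adjusted *p* = 0.0358, and 0.115 in the replicate block). At chromosome 17 from 24061480 to 24061949, 4 probes had 1.57, 1.47 and 1.49 against 0.50, 0.48 and 0.60. The arrays of each line lay close together, with an SD of 0.06 in both, and the difference of 0.99 had the smallest adjusted *p* among the named loci of this direction (0.00567 in limma, and 0.0406 in the replicate block).

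On the X chromosome from 120216918 to 120217515, 5 probes had 5.16, 5.09 and 4.48 in CC9 pahari and 4.30, 4.29 and 3.35 in CC9 dunni. Both lines were far above the array median, and both later arrays were lower than the earlier ones of their line. The difference of 0.93 passed in limma (adjusted *p* = 0.00876). It did not pass with equal median absolute deviation (0.54, limma adjusted *p* = 0.608) or with normexp (1.11, limma adjusted *p* = 0.174). At chromosome 5 from 110564626 to 110565292, 5 probes had 1.38, 1.30 and 1.55 against 0.58, 0.41 and 0.50, which did not overlap (difference 0.91, limma adjusted *p* = 0.00896). With normexp this difference was 0.50 and did not pass (limma adjusted *p* = 0.174). At 3 of the 10 named loci of this direction, on chromosomes 12, 9 and 4, the IP signal was well above background at 37.5%, 27.8% and 11.1% of probes and arrays, so their ratios are bounds and no difference is given for them. The other 2 lay on chromosomes 18 and 8. Of the 7 loci well above background, 3 passed in limma with the replicate block, 3 with equal median absolute deviation, 0 with all 12 arrays, and 1 with normexp, where the differences were 0.18 to 1.18, against 7 of 10 in the other direction. Over the alternatives the limma adjusted *p* was 0.00169 to 1. Of all 10 named loci of this direction, 1 passed without CC9 pahari replicate 1 and 2 without CC9 pahari replicate 2. Without CC9 dunni replicate 1 or 2 it was 2 or 0. In the other direction these counts were 8, 7, 7 and 8 of 10. Without replicate 3 of either line all 10 of each direction passed. Whether the loci of the 2 directions differ in these counts was not tested.

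**Figure D2:**
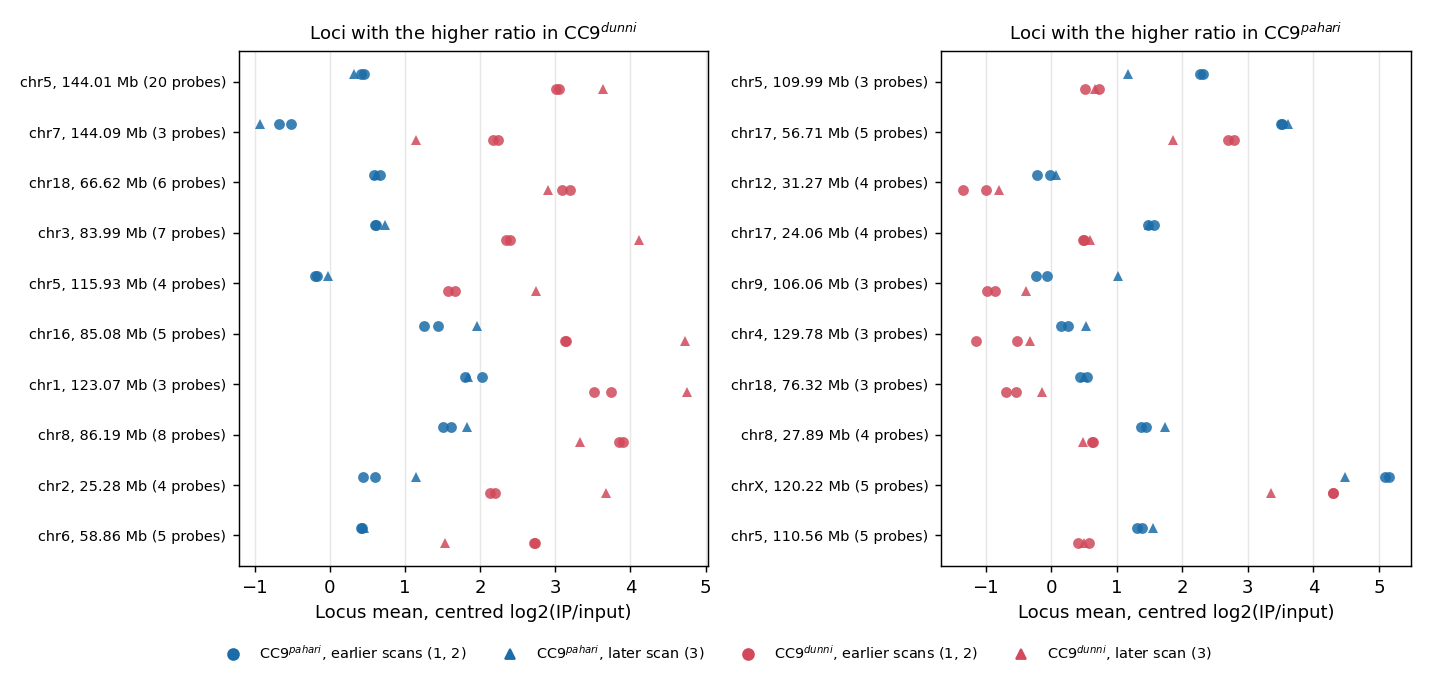
Mean centred log2 ratio of IP over input (horizontal axis) at the 10 named loci higher in CC9 dunni (left) and the 10 higher in CC9 pahari (right), 1 point per array, with CC9 pahari in blue, CC9 dunni in red, circles for the earlier scan period (replicates 1 and 2) and triangles for the later one (replicate 3). The red and blue points do not overlap at any locus, by the rule that chose them, and the gaps are wider on the left. On the right, the ratios of the loci on chromosomes 12, 9 and 4 are bounds, since most of their IP signals were not well above background.

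The loci called higher in CC9 dunni lay at higher ratios than loci in general, and those called higher in CC9 pahari lay near the level of all loci. At the 407 loci higher in CC9 dunni the median ratio was 0.67, 0.61 and 1.08 in CC9 pahari and 1.58, 1.63 and 1.96 in CC9 dunni. At the 176 loci higher in CC9 pahari it was 0.24, 0.22 and 0.60 in CC9 pahari and −0.43, −0.41 and 0.03 in CC9 dunni, while over all loci the medians of the line means were 0.00 in CC9 pahari and −0.06 in CC9 dunni. The medians of the first kind were thus above the array median on all 6 arrays and those of the second on either side of it, though 78 of the 407 loci were below the array median in CC9 pahari. Called higher in CC9 dunni were 0.281% of the 7126 loci with a mean ratio below 0, 2.98% of the 5109 between 0 and 1, 21.2% of the 775 between 1 and 3 and 15.7% of the 453 above 3. Called higher in CC9 pahari were 1.21%, 1.35%, 1.42% and 2.21% of the same classes, a share that varied much less with the level. The level is the mean of the same 6 arrays that give the call. A locus raised in either line moves up in level by that alone, so a rise of these shares with the level is in part built in. The median difference over all loci between 1 and 3 was −0.56 in the earlier period and 0.03 in the later one, and above 3 it was −0.17 and −0.60, so the shift of whole classes was not the same in the 2 periods. The mean ratio passed 2 in CC9 dunni and not in CC9 pahari at 68 of the 407 loci and at 133 of all loci. The reverse held at 2 of the 176 loci and at 24 of all.

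Of loci spanning under 500 bp 7.42% were called, of those from 500 to under 1000 bp 3.59%, from 1000 to under 2000 bp 2.13% and of 2000 bp or more 2.82%, so the share was highest in the shortest class. The IP difference was larger than the input difference at 377 of the 407 called loci higher in CC9 dunni and at 161 of the 176 higher in CC9 pahari. The share over all loci is not given, so these counts do not set the called loci apart. Another called locus of the same direction lay within 100000 bp of 87 of the 583 loci, and 1 of the other direction within that distance of 18. No such count is given over all tested loci, so no grouping by direction is read from these.

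The later arrays were read at loci chosen on the earlier arrays alone. An unadjusted *p* under 0.001 in limma between replicates 1 and 2 of the lines chose 960 loci, 670 higher in CC9 dunni and 290 higher in CC9 pahari. These replicates shared a slide within each line, so this *p* sets the slide of CC9 pahari against that of CC9 dunni. Its error is the spread between arrays of the same slide. Between the replicate 3 arrays, 486 of the 670 (72.5%) and 163 of the 290 (56.2%) had the same direction, and over all loci it was 7417 of 13463 (55.1%). The share for loci higher in CC9 dunni was above that over all loci, while that for loci higher in CC9 pahari was near it. The median difference went from −0.86 in the earlier to −0.34 in the later period at the 670 loci and from 0.67 to 0.07 at the 290. These are descriptions of 1 array a line and were not tested.

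Of the 88737 single probes, 193 (0.217%) passed in limma, 163 higher in CC9 dunni and 30 higher in CC9 pahari, and 15397 had an unadjusted *p* under 0.05. Of the 193 probes, 181 lay in a tested locus, as did 86444 of all 88737 probes, and 157 lay in a called locus. The called loci held 2389 probes where CC9 dunni was higher and 840 where CC9 pahari was higher. A called probe is part of the mean of its locus, so its place in a called locus is in part built in. With the replicate block, or without replicate 1 or 2 of either line, 0 probes passed in limma (11174 with the block and 10062 to 10786 with an array left out had an unadjusted *p* under 0.05). Without replicate 3 of either line 2877 passed.

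The probe with the widest difference among those named as higher in CC9 dunni, A_68_P24155690 on chromosome 5 from 144016148 to 144016192, lies in the first locus above. It had −0.31, −0.41 and −0.17 in CC9 pahari and 3.46, 3.67 and 3.43 in CC9 dunni. The 2 lines were far apart and the arrays within each line close, with a difference of −3.81 (standard error 0.15, limma adjusted *p* = 0.0143, and 0.154 in the replicate block). Probe A_68_P31786966 on chromosome 18 from 66618498 to 66618542 had 0.85, 0.81 and 0.05 against 4.22, 4.27 and 3.24. Both later arrays were lower than the earlier ones, and the difference of −3.34 (limma adjusted *p* = 0.0143, and 0.154 in the replicate block) was −3.19 between these later arrays. All 10 named probes of this direction lay in called loci. With equal median absolute deviation or all 12 arrays 0 of the named probes of either direction passed, and over the alternatives their limma adjusted *p* was 0.000791 to 1.

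The 2 widest differences among the named probes higher in CC9 pahari were not shared by the mean of their locus. Probe A_68_P21723786 on chromosome 2 from 147191194 to 147191239 had 3.47, 3.20 and 4.59 in CC9 pahari and 0.22, 0.60 and 1.69 in CC9 dunni. The lines did not overlap, and the difference was 2.92 (standard error 0.17, limma adjusted *p* = 0.0331, and 0.197 in the replicate block). The mean of its locus of 11 probes differed by −0.41, in the other direction and short of the threshold (limma adjusted *p* = 0.225), and 3 of the 11 probes were higher in CC9 pahari. Probe A_68_P29218716 on chromosome 13 from 91599885 to 91599929 had 3.34, 3.29 and 4.38 against 0.98, 1.13 and 1.77, without overlap. Its difference was 2.37 (limma adjusted *p* = 0.0331, and 0.197 in the replicate block), and that of its locus of 13 probes was 0.15 (limma adjusted *p* = 0.410). Of the 10 named probes of this direction 1 lay in a called locus, where all 6 probes had its direction, and 4 had fewer than 3 probes in their run and so no tested locus.

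Probes were also counted by whether the mean centred ratio of a line was beyond 2 in either direction. The study's methods set this limit on ratios between samples and joined it with a Z-score, which was not used here, so the counts below are not those of the study's rule. By the mean of the 3 arrays, 3648 probes were above 2 in both lines, 1028 in CC9 dunni and not in CC9 pahari, and 492 in CC9 pahari and not in CC9 dunni. The order of the last 2 counts turned with normexp and its offset of 50 together (324 in CC9 dunni alone and 361 in CC9 pahari alone). It also turned without CC9 pahari replicate 1 (932 and 976) and without CC9 pahari replicate 2 (899 and 1021). Of the 1028 probes 83 (8.07%) passed in limma, and of the 492 probes 13 (2.64%), against 0.217% of all probes, and with the replicate block 0 passed. The sets are chosen by a difference between the line means, so a share above that of all probes is built in. The median ratios of the 1028 were 1.52 in CC9 pahari and 2.30 in CC9 dunni, and those of the 492 were 2.18 and 1.69. Below −2 there were 482 probes in CC9 dunni alone, of which 3 passed in limma, and 76 in CC9 pahari alone, of which 0 passed. The IP signal was well above background at 48.4% and 23.5% of these probes and arrays, so most of these ratios are bounds. Leaving out 1 array moved the 482 to between 195 and 2368 and the 76 to between 57 and 387. With normexp there were 6 and 0.

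The input channel holds DNA that was not enriched, and its level differed between the lines on chromosome 8. Relative to the mean of the 6 arrays, the median log2 input signal of its 4989 probes was 0.17, 0.15 and 0.26 in CC9 pahari and −0.16, −0.16 and −0.22 in CC9 dunni. All CC9 pahari arrays were above all CC9 dunni arrays, a difference of 0.37 (exact permutation test, two-sided, *p* = 0.1, the smallest it allows, Benjamini-Hochberg adjusted *p* = 0.167 over 20 chromosomes). The exact *p* was 0.1 on 12 of the 20 chromosomes, so the size of the difference sets chromosome 8 apart, and the other chromosomes differed by −0.06 to 0.04. The difference ran along the whole of chromosome 8, since CC9 pahari was higher without overlap in 195 of its 200 windows of 25 probes (97.5%), against 314 of 3343 windows elsewhere (9.39%), and the 200 windows differed by 0.17 to 0.65. The IP signal of chromosome 8 differed by less, 0.22, and the median ratio of IP over input was lower in CC9 pahari by a difference of −0.15 (−0.16, −0.16 and −0.13 against −0.01, 0.00 and 0.01, exact permutation test, *p* = 0.1, adjusted *p* = 0.333). On the other chromosomes the ratio differed by −0.03 to 0.06. The called loci of chromosome 8 were 34 higher in CC9 dunni and 4 higher in CC9 pahari of 770 tested (4.94%, against 4.33% over all loci). The split varied between the other chromosomes, from 14 higher in CC9 dunni and 17 higher in CC9 pahari on chromosome 1 to 23 and 0 on chromosome 15.

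Along the other chromosomes, 19 of 3343 windows had an input difference beyond 0.3 without overlap, and runs of at least 3 such windows formed 2 segments. These windows and segments were defined after the data were seen, by the difference they show, and were not tested. The longer segment was on chromosome 6 from 63206568 to 77194233, 11 windows with 275 probes, where the input was 0.33, 0.34 and 0.39 in CC9 pahari and −0.22, −0.22 and −0.61 in CC9 dunni. CC9 dunni replicate 3 was the lowest array, and the input difference of 0.70 was set against an IP difference of 0.43 and a difference in the ratio of −0.33. On chromosome 4 from 115748182 to 116692214, 4 windows with 100 probes had −0.24, −0.22 and −0.13 against 0.18, 0.16 and 0.37. There the input difference was −0.43, the IP difference −0.12 and the difference in the ratio 0.28, with ratios of −0.21, −0.20 and −0.22 against −0.66, −0.59 and −0.22. The later pair thus hardly differed in the ratio, although its input differed. The input is the divisor of the ratio, and the segments were chosen by it. Of the 583 called loci, 539 lay outside chromosome 8 and these segments, 371 higher in CC9 dunni and 168 higher in CC9 pahari. So did 12643 of all 13463 tested loci, a near share, so the count does not set the called loci apart. The part of the input level in the ratios of the other 44 called loci was not tested.

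**Figure D3:**
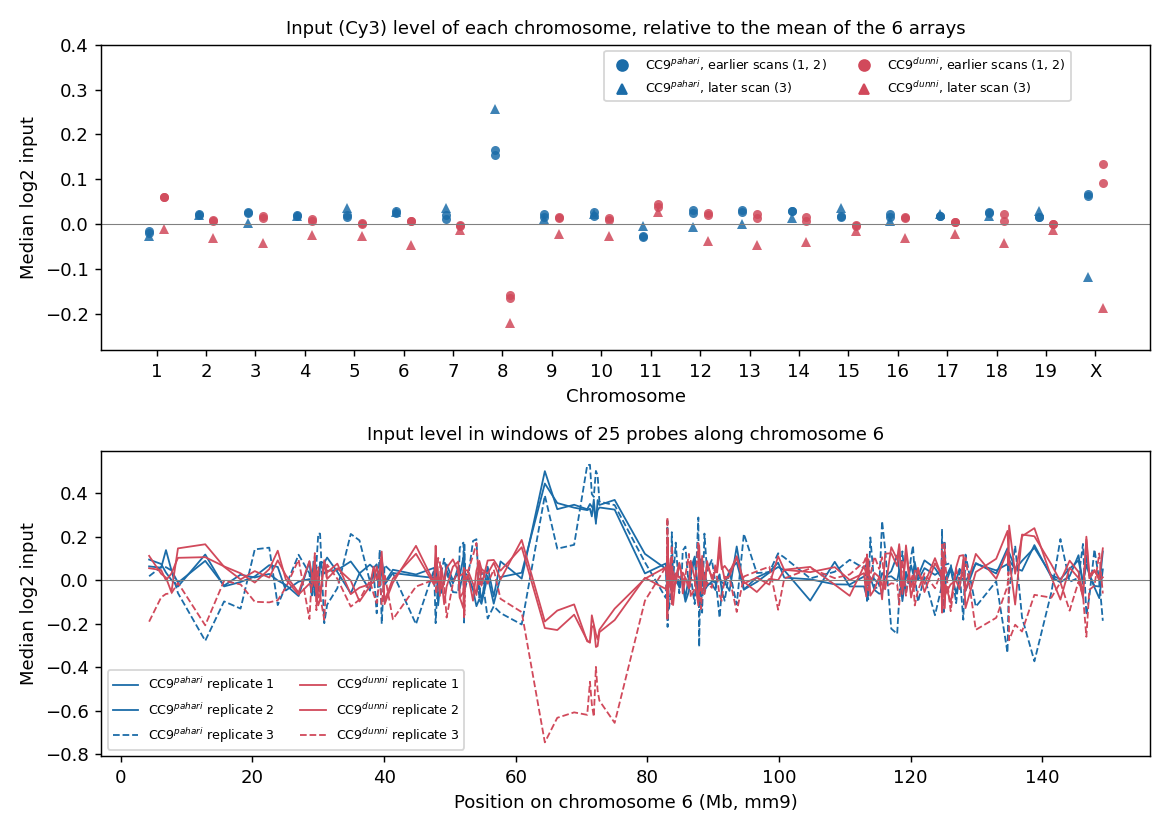
Median log2 input (Cy3) signal relative to the mean of the 6 arrays (vertical axes), by chromosome (top, 1 point per array, circles for the earlier and triangles for the later scan period) and in windows of 25 probes along chromosome 6 (bottom, Mb on mm9, 1 line per array, dashed for the later period), with CC9 pahari in blue and CC9 dunni in red. The lines separate by 0.37 on chromosome 8 and by 0.70 in the segment of chromosome 6.

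The 326 probes without a position and the 90 probes on unplaced chromosome pieces differed by 0.22 and −0.19 in their median ratio (exact permutation tests, *p* = 0.8 and 0.2), and these turned to −0.03 with equal median absolute deviation and to 0.13 with normexp.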

How the data were processed

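Genomic DNA of 2 ES cell lines was enriched by MeDIP from 3 µg of sonicated DNA, and the IP (Cy5) and the input (Cy3) were hybridised together to mouse CpG island arrays (Agilent), 3 arrays per line. The authors extracted the spots with Agilent Feature Extraction (11.0.1.1 per the file headers, 11.0.1.0 in their processing notes). Per the file headers, the processed, median spot and background signals are an intensity, and the deposited ratio is a log10 of IP over input, not centred. The well-above-background columns deposited with them are flags of another kind, 0 or 1.

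The arrays were chosen by the rule that their title names CC9 pahari or CC9 dunni. The comparison and its lists were chosen with earlier results of these data known. Probes of control type 0 were used, 88737 per array, and the log2 of the processed Cy5 over the processed Cy3 signal was centred on the array median. Of these probes 88321 had a position on a chromosome. Runs with gaps of at most 1000 bp and at least 3 probes gave 13463 loci, each the mean of its probes, and 1117 shorter runs were left out. Differences were fitted with limma 3.58.1 (lmFit and eBayes) in R 4.3.3, with the scan period as a block and Benjamini-Hochberg adjustment over all probes or all loci, at an adjusted *p* under 0.05. The model had 3 residual degrees of freedom, to which limma added a prior of 2.70 for probes and 3.63 for loci. In each direction 10 loci and 10 probes, 1 probe per locus, were named by the largest difference among those called without overlap of the lines. Probes also had to be well above background, in the input on every array and in the IP on the arrays of the higher line. All 10 named probes of each direction were also kept by the filter for IP and input well above background. Chromosomes and array quality were compared by the exact permutation test. The model was tested on simulated data of 2 sizes of difference, where it found most of the larger differences and missed most of the smaller ones. A first version of that simulation gave more false calls, after which its variances were drawn from the prior that limma itself fits, which favours limma, the limit on recovery was loosened and that on false calls tightened. It is a weak check of the counts of calls. Tables and figures used Python 3.11.15 with numpy 2.4.6, pandas 2.3.3 and matplotlib 3.10.9.

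The replicate number was checked as a pairing, from the titles. The deviations of each array from its line mean correlated between arrays of the same number at *r* = 0.194, 0.265 and 0.392, and replicate 1 of 1 line with replicate 2 of the other at 0.208 and 0.191, while replicate 3 correlated with the other numbers at −0.315 to −0.254. These deviations carry the scan period, which replicates 1 and 2 share, and the difference of replicate 1 minus 2 correlated between the lines at *r* = 0.0333, so a pairing beyond the period was not seen between these replicates. The replicate block is given for the counts of calls and for the named loci and probes. The descriptions of the 583 called loci by level, span, neighbours and chromosome are of the main model alone. The replicate block kept 116 of these loci, 8 of them higher in CC9 pahari.

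The input was well above background for 95.2%, 95.9% and 98.7% of probes in CC9 pahari and 92.4%, 94.1% and 98.4% in CC9 dunni, and precision is limited by the 3 arrays per line. Alternatives changed the block, the arrays in the model, the background correction (normexp), the source of the ratio, the centring, the scale, the filter on dim probes, the call rule and the definition of a locus. The normexp alternative also added an offset of 50, so its values do not show the background correction alone. Models of the IP signal alone and the segments of input level were added after the data were seen. Gene lists and cell type markers were left out because the files pair no probe with a gene and no annotation on mm9 was at hand.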

Additional observations from a re-analysis of the deposited data

Results flagged for a closer look

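For 5 measures of array quality every earlier array pair (replicates 1 and 2) differed between the lines in 1 direction and the later pair (replicate 3) in the other. Each is given as CC9 pahari minus CC9 dunni, first in the earlier and then in the later scan period. The share of probes with IP well above background differed by 4.89 and −2.89 percentage points, the SD of the log2 ratio by −0.149 and 0.122, and its scaled median absolute deviation by −0.0911 and 0.392. The number of probes above 2 differed by −1092.5 and 1763, and the number below −2 by −2012.5 and 413. The later period holds 1 array per line, and the difference between the periods was not tested in any of these measures.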

How the results depend on the processing

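The named loci and probes were chosen without overlap of the lines, so leaving out arrays or changing the block could not turn them. Of 442 values for 20 loci and 380 for 20 probes under the alternatives, 322 and 181 passed the threshold. Their size changed with the scale, as the named loci differed by −1.90 to −0.69 with normexp and −3.85 to −2.34 with equal median absolute deviation in place of −2.83 to −1.90, and by 0.18 to 1.18 and 0.54 to 1.35 in place of 0.91 to 1.28. The counts of called probes and loci did not hold as well, and the cause was not tested. The 193 probes and 583 loci called in limma became 17 and 62 with no scan period block, 2877 and 2420 in the earlier scan period only, 6 and 275 with the slide as a random block, 366 and 354 with 9 arrays, 0 and 0 with all 12 arrays (2276 and 356 at an unadjusted *p* under 0.05), 110 and 50 with normexp, and 0 and 138 with equal median absolute deviation (14965 probes at an unadjusted *p* under 0.05). They became 782 and 736 with the input well above background, 2239 and 870 with IP and input well above background, and 193 and 136 with a difference of at least 1. The IP signal alone, added after the data were seen, gave 45 probes and 697 loci. With the replicate block, which takes the replicate number as a pairing, limma called 0 probes (11174 at an unadjusted *p* under 0.05) and 116 loci, all among the 583. Named loci passed there in 8 of 10 higher in CC9 dunni (limma adjusted *p* 0.0285 to 0.0646) and 4 of 10 higher in CC9 pahari (0.0406 to 0.115), 1 of them not well above background, and named probes in 0 of 20. Leave-one-out gave 66 and 85 loci without CC9 pahari replicate 1 or 2, and 70 and 58 without CC9 dunni replicate 1 or 2. For probes it gave 0 there (10062 to 10786 at an unadjusted *p* under 0.05). Without replicate 3 of either line it repeated the earlier-period fit (2877 probes and 2420 loci), which all named items passed. Where an arm held 1 array, it was assumed to vary like the others. The deposited ratio gave 185 and 583, no centring 254 and 565, gaps of 500 and 2000 bp 607 and 570 loci, and loci of at least 2 and at least 5 probes 566 and 432. Of the counts by the threshold of 2, 3648 probes above it in both lines became 1532 with normexp. The 492 above it in CC9 pahari alone became 247 in the earlier scan period, 361 with normexp and 225 to 1021 in leave-one-out (976, 1021 and 225 without CC9 pahari replicates 1, 2 and 3). The 1028 in CC9 dunni alone became 2116 with equal median absolute deviation, 324 with normexp, and 932 and 899 without CC9 pahari replicate 1 or 2, so in the last 3 the order of the lines turned. Below −2, the 34 probes in both lines became 0 on every array, 200 in the earlier period, 168 with equal median absolute deviation, 0 with normexp and 21 to 86 in leave-one-out (86 without CC9 pahari replicate 3, 21, 22 and 53 without CC9 dunni replicates 1, 2 and 3). The 76 in CC9 pahari alone became 5, 273, 196 and 0 in the same order and 57 to 387 in leave-one-out (144 without CC9 pahari replicate 1, 387 without CC9 pahari replicate 3), and the 482 in CC9 dunni alone 2, 2230, 1367 and 6, and 195 to 2368 in leave-one-out (199, 195 and 2368 without CC9 dunni replicates 1, 2 and 3). The cause was not tested. The median ratio of the probes without a position turned from 0.22 to −0.026 with equal median absolute deviation, and that of the unplaced chromosome pieces from −0.19 to 0.13 with normexp. The input difference of chromosome 8 was 0.32 to 0.39 in leave-one-out and 0.37 by the mean over probes, and its ratio −0.19 to −0.14. In the segments, whose alternatives were added after the data were seen, the input difference was 0.57 to 0.76 on chromosome 6 and −0.48 to −0.40 on chromosome 4. Signal over background limits the low ratios, most of all on CC9 dunni replicates 1 and 2, where the IP was well above background for 80.0% and 80.6% of probes. The gene list alternative was not run.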
